A study of Mus musculus with 2 samples.

Results

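The genes described here are 10 that encode lysosomal proteases of the mouse meninges: the cysteine cathepsins Ctsb, Ctsc, Ctsh, Ctsk, Ctsl, Ctss and Ctsz, the aspartic protease Ctsd, the serine carboxypeptidase Ctsa, and legumain (Lgmn), an asparaginyl endopeptidase. They were chosen by symbol, and each of the 10 matched 1 of the 32285 gene rows in both libraries. Single-cell RNA-seq was run on dorsal meninges of male C57BL/6J mice, 10 weeks of age by 1 label and 10 to 12 weeks by another, taken 1 week after a mild closed-skull traumatic brain injury (TBI) or a Sham procedure. No transgene or other treatment was given in either group, and live single cells were sorted before loading. Each group was 1 library pooled from 5 mice, so no spread between animals could be measured and no test between groups was made. The dorsal tissue taken lies away from the spot that was struck.

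Cathepsins are made as inactive precursors, sorted to lysosomes largely by mannose 6-phosphate receptors, and activated there at acid pH. Macrophages and other antigen-presenting cells use them to digest what they take up and to process antigens and the invariant chain for MHC class II, while cystatins bind and block the cysteine cathepsins. Cathepsin K is best known as a collagen-degrading enzyme of osteoclasts and activated fibroblasts.

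The matrices held 2699 Sham and 4349 TBI barcodes, of which 2043 and 3773 passed the filters, with medians of 2764 and 2663 unique molecular identifiers (UMIs, counted molecules) per cell. Only 20 barcode sequences were present in both libraries. More Sham barcodes (22.4%) than TBI barcodes (9.91%) had over 5% hemoglobin UMIs and were removed, and among the macrophage-like cells kept, hemoglobin was at 1798 CPM (counts per 1000000 UMIs) in Sham and 239.8 in TBI. The kept cells formed 25 clusters in 19 marker-named classes, 17 of which had at least 20 cells in each library. The members and the other lysosomal genes were left out of the clustering. All 23 macrophage markers had UMIs in the macrophage-like class of both libraries. Levels are CPM of the summed UMIs of a class, with 95% Poisson intervals that cover counting error only, and since these are 3′ UMIs, a level is not scaled by transcript length.

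Promoter windows are shown first, because members with like patterns across cell classes could be set beside the letters at their starts. RefSeq windows of GRCm38.p6, 250 bases before to 50 after each start, matched 8 of the 10 members, all but Ctsb and Ctsh. Both strands were searched for CACGTG, the E-box bound by MiT/TFE factors among others, for its longer form TCACGTGA, which contains it and is the core of the lysosomal CLEAR element, and for GAGGAAGT (reverse complement ACTTCCTC), a core bound by the myeloid factor PU.1. The longer E-box was in windows of Ctsa and Ctsd (2 of 8 members, against 1.12% of all genes), and CACGTG in those 2, Ctsl and Lgmn (4 of 8, against 8.09%). Ctsa and Lgmn each had another window without a match, at chr2:164832622-164832921 and chr12:102439679-102439978. The PU.1-type letters were in Ctsc and Ctss (2 of 8, against 3.69%), a pair with r = 0.84 across the classes of both libraries, while Ctsa and Ctsd, which share the longer E-box, had r = 0.15. Capitals mark CACGTG or TCACGTGA in the first pair of sequences and ACTTCCTC in the second, all printed 5′ to 3′ on the strand of the gene.
Ctsa, chr2:164833523-164833822, plus strand: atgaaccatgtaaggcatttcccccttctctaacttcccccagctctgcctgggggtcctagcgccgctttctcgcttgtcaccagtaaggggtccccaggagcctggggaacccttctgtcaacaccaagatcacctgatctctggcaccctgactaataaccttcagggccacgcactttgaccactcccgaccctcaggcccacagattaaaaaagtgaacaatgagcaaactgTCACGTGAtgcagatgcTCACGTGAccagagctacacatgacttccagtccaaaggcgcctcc
Ctsd, chr7:142387778-142388077, minus strand: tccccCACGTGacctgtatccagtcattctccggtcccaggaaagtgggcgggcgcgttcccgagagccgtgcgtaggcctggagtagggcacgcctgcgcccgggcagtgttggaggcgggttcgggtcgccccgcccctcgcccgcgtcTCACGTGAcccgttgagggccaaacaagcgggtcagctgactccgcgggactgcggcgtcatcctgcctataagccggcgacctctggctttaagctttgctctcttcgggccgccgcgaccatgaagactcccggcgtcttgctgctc
Ctsc, chr7:88277835-88278134, plus strand: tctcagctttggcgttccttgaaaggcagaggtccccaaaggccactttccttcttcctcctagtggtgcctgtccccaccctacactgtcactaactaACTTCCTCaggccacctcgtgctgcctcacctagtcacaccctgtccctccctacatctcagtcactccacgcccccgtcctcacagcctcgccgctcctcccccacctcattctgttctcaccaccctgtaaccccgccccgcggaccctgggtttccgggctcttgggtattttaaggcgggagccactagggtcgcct
Ctss, chr3:95526536-95526835, plus strand: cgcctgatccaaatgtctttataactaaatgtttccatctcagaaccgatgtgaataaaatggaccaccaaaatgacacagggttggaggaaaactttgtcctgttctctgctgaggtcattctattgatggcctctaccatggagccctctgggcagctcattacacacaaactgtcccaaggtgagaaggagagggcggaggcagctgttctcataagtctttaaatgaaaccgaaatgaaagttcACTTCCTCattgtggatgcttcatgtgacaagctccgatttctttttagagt
A match describes these windows and is not evidence that a factor bound there. By GENCODE M21 on mm10, all 10 members are protein-coding. Ctsk (chr3:95499256-95509362) and Ctss (chr3:95526786-95556403) lie on the same chromosome and strand, and their levels across classes had the lowest correlation of any pair of members. Ctsd overlaps the protein-coding model Gm49369 on its own strand, and Ctss and Ctsl each overlap a processed pseudogene on theirs, so molecules from the shared stretches could not be told apart here.

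The macrophage-like class carried by far the most cathepsin and legumain RNA. Summed over the 10 members, it held 11151 CPM in Sham (10988 to 11315) and 11557 in TBI (11445 to 11669), that is 1.12% and 1.16% of all its UMIs. Plasmacytoid dendritic cell-like cells followed at 7680 and 7749 CPM and monocyte-like cells at 5356 and 5917. Within 1 library the intervals of these 3 leading classes did not overlap. Among the classes with the least were T cell-like cells, with 955 and 1318 CPM, and ILC2 or Th2-like cells, with 865 and 868, while B cell-like cells had 1755 and 1867.

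**Figure D1:**
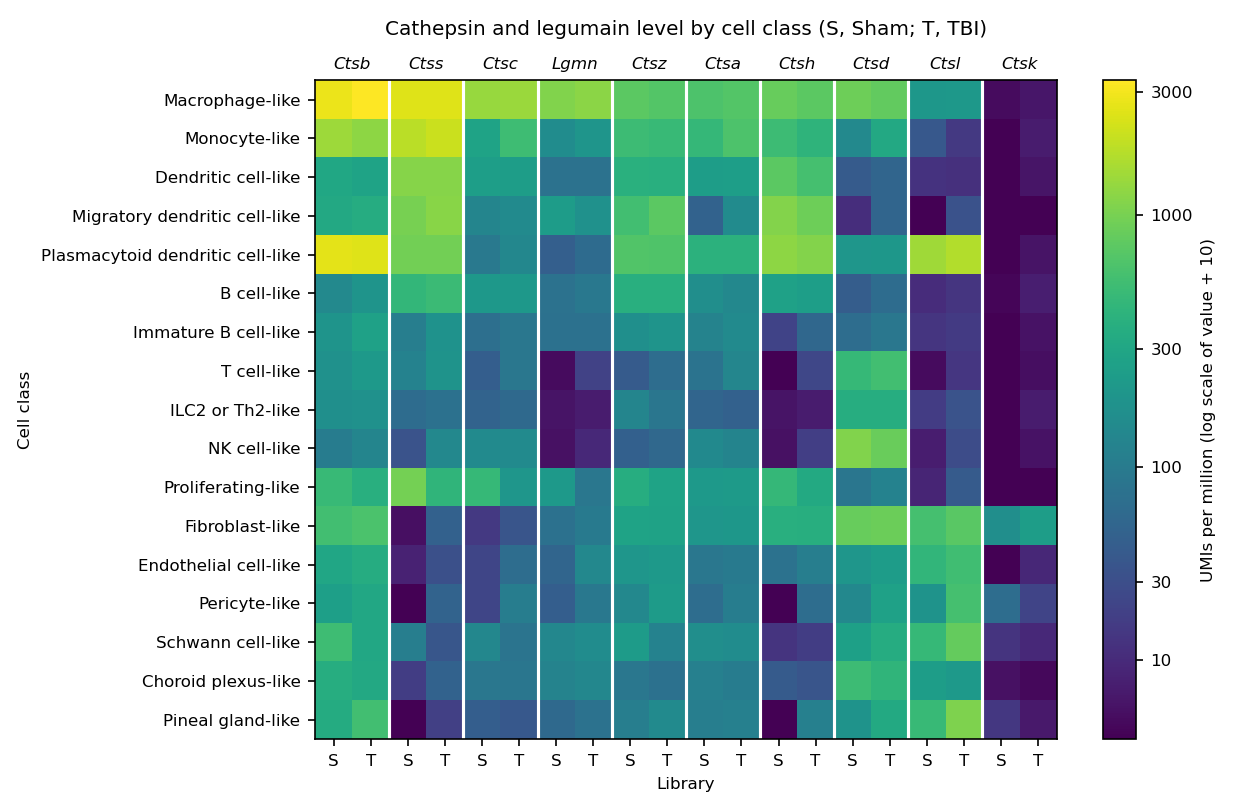
Levels of the 10 members in 17 cell classes, as CPM on a log colour scale, with Sham (S) and TBI (T) side by side for each gene. The macrophage-like row is bright for all members but Ctsl and Ctsk, Ctsl peaked in plasmacytoid dendritic cell-like cells at 1457 and 1704 CPM, and Ctsk was seen mainly in fibroblast-like cells.

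Ctsb, Ctss, Ctsc, Ctsa and Lgmn were the 5 members whose level was highest in macrophage-like cells in both libraries. Ctsb, an endopeptidase with carboxydipeptidase activity, was at 2823 (Sham) and 3311 CPM (TBI), and Ctss, the main invariant chain protease of myeloid cells, at 2494 and 2488. For Ctsb, plasmacytoid dendritic cell-like cells followed at 2616 and 2486 CPM, and in Sham their interval overlapped that of macrophage-like cells. Ctss decreased from macrophage-like to monocyte-like (1815 and 2053) and dendritic cell-like cells (1157 and 1152). It was low in fibroblast-like and endothelial cell-like cells. Ctsc, which activates granule serine proteases, was at 1359 and 1371 CPM in macrophage-like cells, and the next class was at 482 in Sham and 540 in TBI. Lgmn, which cleaves after asparagine and processes other cathepsins, was the most restricted of the 5: macrophage-like cells held 79.1% of its UMIs in Sham and 82.1% in TBI, with 17.8% and 20.5% of the cells. B cell-like cells, set beforehand as a background class for Lgmn, had it at 78.9 and 91.9 CPM, in 21.2% and 19.4% of cells. T cell-like (1.81 and 21.1 CPM), NK cell-like (2.88 and 9.53) and ILC2 or Th2-like cells (3.56 and 5.66) had less. The B cell-like level is therefore not a floor for Lgmn. Ctsa, the protective protein of beta-galactosidase and neuraminidase, was at 648 and 689 CPM in macrophage-like cells, and monocyte-like cells (464 and 643) overlapped that level in TBI.

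Ctsh and Ctsz, both exopeptidases, had their highest levels in antigen-presenting classes rather than in macrophages alone. Ctsh was highest in plasmacytoid dendritic cell-like cells (1220 and 1127 CPM), then in migratory dendritic cell-like cells (1121 and 906), ahead of macrophage-like cells (850 and 765) and dendritic cell-like cells (762 and 595). The first 2 of these classes overlapped in both libraries. Migratory dendritic cell-like and macrophage-like cells overlapped in TBI, and macrophage-like and dendritic cell-like cells in Sham, so these pairs are not ordered there. Ctsh had no UMI among 551816 in Sham T cell-like cells, where 3 counts, the floor used here, would be 5.44 CPM. In TBI T cell-like cells it had 21 UMIs, or 24.6 CPM (15.2 to 37.6), in 7 of 225 cells. Pineal gland-like cells had 0 Ctsh UMIs in Sham and 23 in TBI, the latter at 114.5 CPM. Ctsz was at 755 and 700 CPM in macrophage-like cells, 671 and 668 in plasmacytoid and 560 and 760 in migratory dendritic cell-like cells, and neighbours in this order overlapped in each library. B cell-like cells also held it, at 379.2 and 378.7 CPM. Fibroblast-like cells, which are not leukocytes, had Ctsz at 283 and 277 CPM. Their Ctsh, at 379 and 374 CPM, lay above that of B cell-like cells (264 and 251).

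Ctsd, the chief aspartic protease of lysosomes, was high in several unrelated classes. NK cell-like cells had 1101 CPM in Sham and 873 in TBI, fibroblast-like cells 861 and 884, and macrophage-like cells 912 and 808. The NK cell-like level lay above the others in Sham and overlapped both in TBI. It made up 69.0% of all member UMIs in Sham NK cell-like cells. Dendritic cell-like cells, by contrast, had only 43.3 and 56.9 CPM of Ctsd, and B cell-like cells 45.7 and 67.4. Ctsl, a broad endopeptidase, was at 1457 and 1704 CPM in plasmacytoid dendritic cell-like cells, against 207.3 and 209.3 in macrophage-like and 13.5 and 12.5 in dendritic cell-like cells. Outside that class it was highest in classes that are not leukocytes: 586 and 749 CPM in fibroblast-like, 485 and 1060 in pineal gland-like, 479 and 840 in Schwann cell-like and 442 and 544 in endothelial cell-like cells.

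Ctsk was the member with the narrowest source. Fibroblast-like cells held 60 of 70 Ctsk UMIs in Sham (85.7%) and 549 of 601 in TBI (91.3%), although they were 5.92% and 20.2% of the cells. Their level was 165 CPM (126 to 212) and 243 CPM (223 to 264). Macrophage-like cells had 3 and 15 UMIs, or 1.87 and 4.24 CPM, and pericyte-like cells 3 and 3. Of the 8 osteoclast markers searched, Acp5 and Mmp9 were the ones to reach 100 UMIs in the macrophage-like class, and the list summed to 55.4 and 72.1 CPM there. B cell-like cells, which should lack Ctsk, had a Ctsk UMI in 0.275% and 1.39% of cells, at median depths of 3087 and 2660 UMIs, against 23.1% and 36.1% of fibroblast-like cells at 2149 and 2250.

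**Figure D2:**
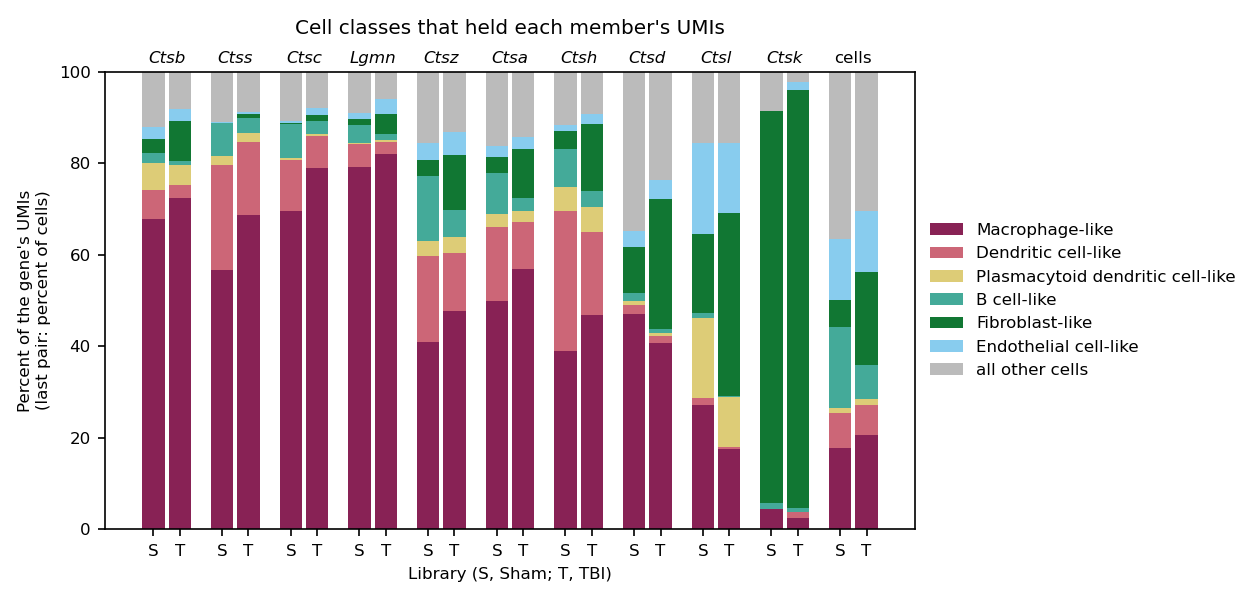
Percent of each member's UMIs held by 6 classes and by all other cells in the Sham (S) and TBI (T) libraries, with the percent of cells in the last pair of bars. Fibroblast-like cells held 85.7% and 91.3% of Ctsk, and macrophage-like cells 79.1% and 82.1% of Lgmn.

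These counts are of kept cells, and 1 Sham barcode outside the filters held 330 of the 405 Ctsk UMIs of the whole Sham matrix. It had 37467 UMIs and 5111 genes, over the limit of 5000, while no kept cell had more than 7 Ctsk UMIs in Sham or 11 in TBI. The same barcode held 311 UMIs of Acp5, 38 of Atp6v0d2 and 37 of Mmp9, with 5 of the 8 osteoclast markers above 0. It had no UMI of the C1q genes, Col1a1 or Dcn, and 15 of Ctsb, 3 of Ctss and 1 of Lgmn. A single barcode allows no statement on the groups.

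Over all filtered cells, 2 of the 10 members passed 1.5-fold between the libraries, against 16.4% of 11704 genes. Ctsk stood at 8.90 CPM for Sham and 43.1 for TBI, a log2 ratio of TBI over Sham of 2.27 (counting interval 1.92 to 2.65), and Ctsl at 156 and 304, a log2 ratio of 0.97 (0.87 to 1.06). The Ctsk ratio depended on leaving out the barcode just described. Without the limit on genes per barcode, which brought it back, the levels were 49.7 and 42.7 CPM and the log2 ratio -0.22 (-0.40 to -0.03). With no filter at all the Ctsk ratio was -0.05 (-0.23 to 0.14). That of Ctsl was 0.97 and 1.12 under the same settings. With every class held at the mean of its 2 library levels, so that only the makeup differed, the log2 ratios were 1.56 for Ctsk and 0.67 for Ctsl. Ctss, at 899 and 917 CPM, and Ctsz, at 376 and 373, were nearly level between the libraries over all cells. In a sort of pooled tissue, the number of cells of a class recovered and the RNA per cell both enter such totals, so the comparisons that follow were made within classes.

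Within macrophage-like cells, none of the 9 members with at least 100 UMIs passed 1.5-fold between TBI and Sham, against 3.54% of the 5676 genes at that depth. Ctsb had a log2 ratio of 0.23 (0.18 to 0.28) and Lgmn, from 1099 CPM to 1211, one of 0.14 (0.06 to 0.22). Ctsd (log2 ratio of -0.18, -0.27 to -0.08), Ctsh (-0.15, -0.25 to -0.06) and Ctsz (-0.11, -0.21 to -0.01) lay on the other side. Ctss and Ctsc had log2 ratios of -0.00 and 0.01. The median ratio of the 9 was 0.01, the same to 2 decimals as that of all genes tested. With every cell thinned to 1000 UMIs, the share of macrophage-like cells with a Ctsb UMI was 85.3% in Sham (80.4 to 89.3) and 87.8% in TBI (85.1 to 90.2), while without thinning it was 86.0% and 94.8%, at median depths of 2350 and 3908 UMIs. For thinning, 265 Sham and 658 TBI cells were deep enough.

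In dendritic cell-like cells 0 of 8 members passed 1.5-fold, against 3.69% of 3654 genes. Among these 8, Ctsh alone had an interval that left out 0, with 762 CPM against 595 and a log2 ratio of -0.36 (-0.48 to -0.23). Ctss, the member with the most UMIs there, was at 1157 and 1152. The 5 mast cell markers summed to 2.84 CPM for Sham and 502 for TBI in the same class, with Tpsab1 at 0 in both. Their part in the Ctsh value was not tested.

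In fibroblast-like cells 1 of 9 members passed 1.5-fold, against 10.9% of 4986 genes. That member was Ctss, with 1 UMI in Sham and 115 in TBI (2.75 and 50.9 CPM, log2 ratio 3.63, 1.70 to 9.53). In TBI 37 of 764 cells (4.84%) had a Ctss UMI, and 5 cells held 51.3% of the UMIs. Macrophage markers moved with it: 14 of the 23 had UMIs in Sham fibroblast-like cells and all 23 in TBI, with sums of 137 and 740 CPM, and the 3 C1q genes, the defining markers, were at 66.0 and 341 CPM. The markers at 0 in Sham were Cx3cr1, Fcgr3, Cbr2, Folr2, Cd209f, Cd209g, Ccl8, C5ar1 and Fcgr4. The class held 363661 UMIs in Sham and 2259660 in TBI. Here and in the classes below, numbers of markers with a UMI are therefore not compared at like depth. Without cells that held a C1q UMI (10 in Sham, 98 in TBI) the Ctss counts were 1 and 55, a log2 ratio of 2.64 (0.68 to 8.55), under the minimum of 100 UMIs, and with predicted doublets removed Ctss was under that minimum too. The part of macrophage RNA in the Ctss value was not otherwise tested. Some other classes, with under 100 Ctss UMIs, also had more of it in TBI. The levels were 34.6 and 140 CPM in NK cell-like, 7.31 and 31.7 in endothelial cell-like and 18.4 and 51.7 in choroid plexus-like cells. Without cells that held a C1q UMI, NK cell-like cells had 12 and 7 Ctss UMIs (34.9 and 27.0 CPM, log2 ratio -0.33, -1.95 to 1.09), so the rise was gone. Endothelial cell-like cells then had 7.48 and 25.1 CPM. In choroid plexus-like cells the C1q genes were at 12.3 and 366 CPM, and their part was not tested. In Schwann cell-like cells Ctss was lower in TBI (110 and 37.3 CPM).

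The members that fibroblast-like cells held at higher levels did not pass 1.5-fold in the summed class. Ctsk had a log2 ratio of 0.55 (0.17 to 0.97) and Ctsl, at 586 and 749 CPM, 0.35 (0.15 to 0.57), whereas Ctsd had 0.04, Ctsb 0.15 and Ctsh -0.03, each with an interval that included 0. Leaving out the cells with a C1q UMI gave 0.56 for Ctsk and 0.34 for Ctsl. In the mean over cells, and with both fibroblast-like clusters given equal weight, Ctsk and Ctsl did pass 1.5-fold. In 1 draw of thinning to 1000 UMIs, Ctsk was the 1 member that passed. Another draw of the same thinning gave 0.172 Ctsk UMIs per cell in 87 Sham cells and 0.221 in 664 TBI cells, under 1.5-fold. The call after thinning thus depended on the draw, and 5 cells held 43.3% of the unthinned Sham Ctsk UMIs. The share of all genes past the fold was not computed under those settings. The clusters differed in level. Cluster 2, led by Dcn, Lum and Igfbp6, had Ctsk at 213 and 295 CPM, Ctsd at 1077 and 1013 and Ctsl at 746 and 897. Cluster 6, led by Foxp2 and named from Slc4a10, Slc47a1 and Col12a1, had Ctsk at 39.6 and 96.0 CPM, Ctsd at 297.0 and 520 and Ctsl at 168 and 333. Its Ctsk rested on 4 and 57 UMIs (log2 ratio 1.12, -0.16 to 3.20), under the minimum, and its Ctsl on 17 and 198. Both entered the equal weighting above, where cluster 2 had Ctsk at 0.46 (0.07 to 0.90). In cluster 6 both Ctsd (log2 ratio 0.79, 0.27 to 1.40) and Ctsl (0.95, 0.27 to 1.79) rose past 1.5-fold, where 17.3% of 1101 genes passed in either direction. In cluster 2, where 11.6% of 3545 genes passed, Ctsd was at -0.09 (-0.27 to 0.10) and Ctsl at 0.26 (0.05 to 0.49).

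In endothelial cell-like cells 1 of 7 members passed, against 6.01% of 3379 genes. This was Lgmn, with 31 and 170 UMIs or 56.7 and 142 CPM (log2 ratio 1.303, 0.76 to 1.92). It was found in 7.41% of Sham cells and 19.0% of TBI cells, or 4.29% and 11.2% after thinning to 1000 UMIs. The macrophage markers in this class summed to 243 CPM in Sham, where 12 of the 23 were at 0, Csf1r, Adgre1 and Cx3cr1 among them, and to 601 in TBI, where none was. The C1q genes were at 12.8 and 152 CPM. Without cells that held a C1q UMI, Lgmn was at 58.0 and 142 CPM, a log2 ratio of 1.27 (0.72 to 1.90). Ctsl, the leading member of the class, was at 442 and 544 CPM (0.30, 0.08 to 0.52).

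The endothelial cell-like class was made of 2 clusters with unlike ratios. Cluster 3, led by Gpihbp1, Igfbp3 and Btnl9, held 72.1% of the class UMIs in Sham and 57.7% in TBI, and cluster 8, led by Vwf, Tmem252 and Slc38a5, held 27.9% and 42.3%. Lgmn was at 30.4 and 49.1 CPM in cluster 3 (12 and 34 UMIs, 0.65, -0.29 to 1.78, under the minimum) and at 125 and 268 CPM in cluster 8 (1.07, 0.41 to 1.88), so that the class ratio lay above both. In cluster 8 Ctsd rose from 157 to 319 CPM (1.00, 0.40 to 1.71) and Ctsl from 216 to 428 (0.97, 0.45 to 1.56), which with Lgmn made 3 of 6 members, against 17.7% of 1048 genes. In cluster 3, where 3.72% of 2095 genes passed, Ctsd was at -0.25 (-0.65 to 0.17) and Ctsl at 0.25 (0.01 to 0.49).

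In T cell-like cells 3 of 5 members rose past 1.5-fold, against 4.57% of 2059 genes. Ctsa was at 81.5 CPM in Sham and 132 in TBI (0.69, 0.19 to 1.23), Ctsc at 47.1 and 90.2 (0.92, 0.28 to 1.64) and Ctss at 121 and 189 (0.63, 0.22 to 1.07). A few cells weighed on this, since 5 cells held 50.3% of the Ctss UMIs in TBI. C1q was at 9.06 and 274 CPM, and the 23 macrophage markers at 29.0 and 387, with 12 of them at 0 in Sham and 5 in TBI (Folr2, Lyve1, Cd209f, Cd209g and C5ar1). After cells with a C1q UMI were left out (4 in Sham, 23 in TBI), Ctss was at 122 and 135 CPM (0.14, -0.32 to 0.62) and Ctsc at 46.9 and 67.3 (0.51, -0.20 to 1.27), while Ctsa still passed (0.63, 0.10 to 1.19). Hemoglobin was at 2233 and 220.2 CPM in these cells. With no limit on hemoglobin UMIs none of the 3 passed and the Ctss ratio was -0.17. More barcodes were kept in that setting and clusters were formed and named anew, so its T cell-like class need not hold the same cells. Ctsd, the main member of T cell-like cells, was at 478 and 556 CPM.

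**Figure D3:**
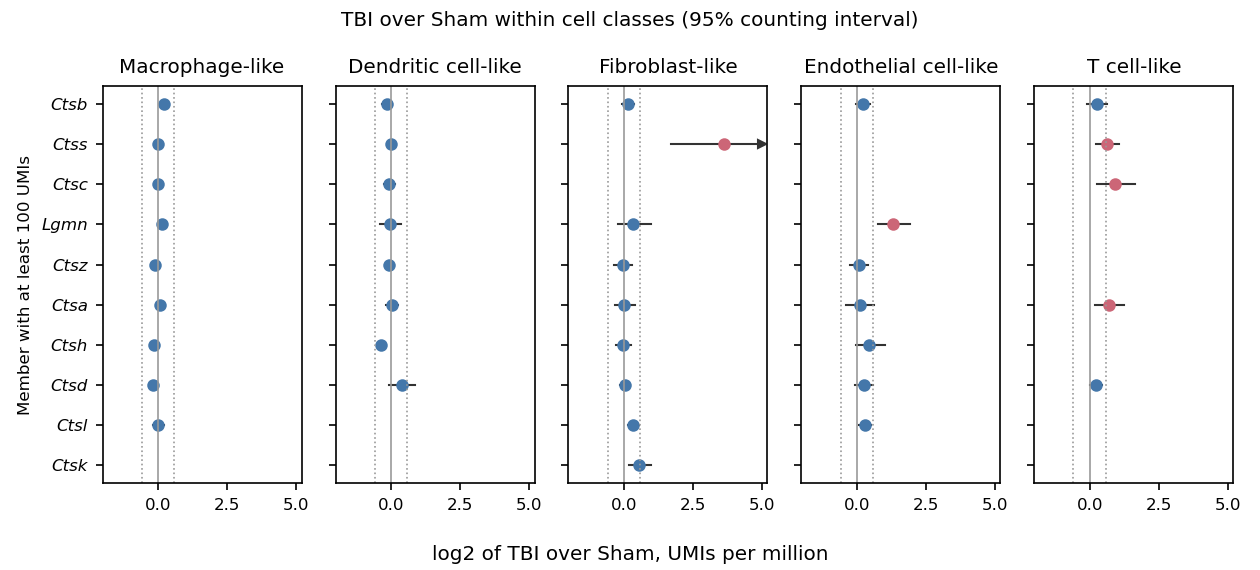
Log2 ratio of TBI over Sham for each member with at least 100 UMIs in 5 classes, with 95% counting intervals. Dotted lines mark 1.5-fold, red points lie past it and an arrow marks an interval that runs beyond the axis. All macrophage-like points lie inside the dotted lines, and Ctss in fibroblast-like and Lgmn in endothelial cell-like cells lie outside.

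Of the other 12 classes compared, 4 had a member past the fold. Ctsc was at 280 and 540 CPM in monocyte-like cells (0.94, 0.38 to 1.55), the only 1 of 6 members to pass, against 8.28% of 459 genes. The C1q genes were at 24.0 and 124 CPM and the 23 macrophage markers at 3006 and 2696 in that class, with 10 and 6 of them at 0, and their part in the value was not tested. In proliferating cells Ctsc fell from 482 to 200 CPM (-1.26, -1.72 to -0.83) and Ctss from 968 to 435 (-1.15, -1.46 to -0.85), 2 of 6 members against 12.6% of 884 genes. That class had 734 C1q UMIs in 32 Sham cells and 113 in 48 TBI cells, its 23 macrophage markers summed to 4320 and 965 CPM, and 3 of them (Lyve1, Cd209f and Cd209g) were at 0 in Sham. Their part in both values was not tested. Ctsl rose in Schwann cell-like cells (0.80, 0.23 to 1.42, 1 of 1 member, against 17.2% of 239 genes), where the macrophage markers summed to 1671 and 364 CPM, whose part in the value was not tested. Of the 2 Schwann cell-like clusters, cluster 20 (55.6% of the class in Sham, 78.3% in TBI) had Ctsl at 650.3 and 1114 CPM (0.76, 0.14 to 1.45, where 13.6% of 140 genes passed) and cluster 24 had 7 and 6 UMIs (-0.29, -2.15 to 1.49). In pineal gland-like cells Ctsb rose from 344 to 558 CPM (0.67, 0.03 to 1.43) and Ctsl from 485 to 1060 (1.11, 0.58 to 1.72), 2 of 2 members in a class where 30.2% of 371 genes passed. Without cells that held a C1q UMI, these ratios were 0.64 (-0.03 to 1.42) for Ctsb and 1.05 (0.51 to 1.66) for Ctsl.

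The macrophage-like class was made of 3 clusters that differed in their member levels. Cluster 1 (162 Sham and 420 TBI cells) was led by Cx3cr1, Fcgr4 and Trem2, with Lyve1 at 0.948 and 1.32 CPM. Cluster 7 (92 and 227 cells) had Folr2 at 564 and 708 CPM and Cd209f at 1074 and 768, markers of border macrophages. Cx3cr1 was at 645 and 445 CPM there too, against 731 and 582 in cluster 1. Cluster 9 (109 and 128 cells) shared Ccl8 and Cd209f with cluster 7 but was shallow, with medians of 868 and 971 UMIs per cell. Ctss was at 3038 and 3031 CPM in cluster 1 against 1505 and 1555 in cluster 7. Ctsb ran the other way, at 2000 and 2599 CPM in cluster 1 and 4906 and 4788 in cluster 7, and so did Ctsl (126 and 145 against 377 and 338), Ctsd (605 and 670 against 1463 and 1075), Lgmn (891 and 1117 against 1656 and 1468) and Ctsc (1295 and 1331 against 1712 and 1553). Ctsh was higher in cluster 1 (911 and 823 against 804 and 708), with intervals that overlapped in Sham.

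**Figure D4:**
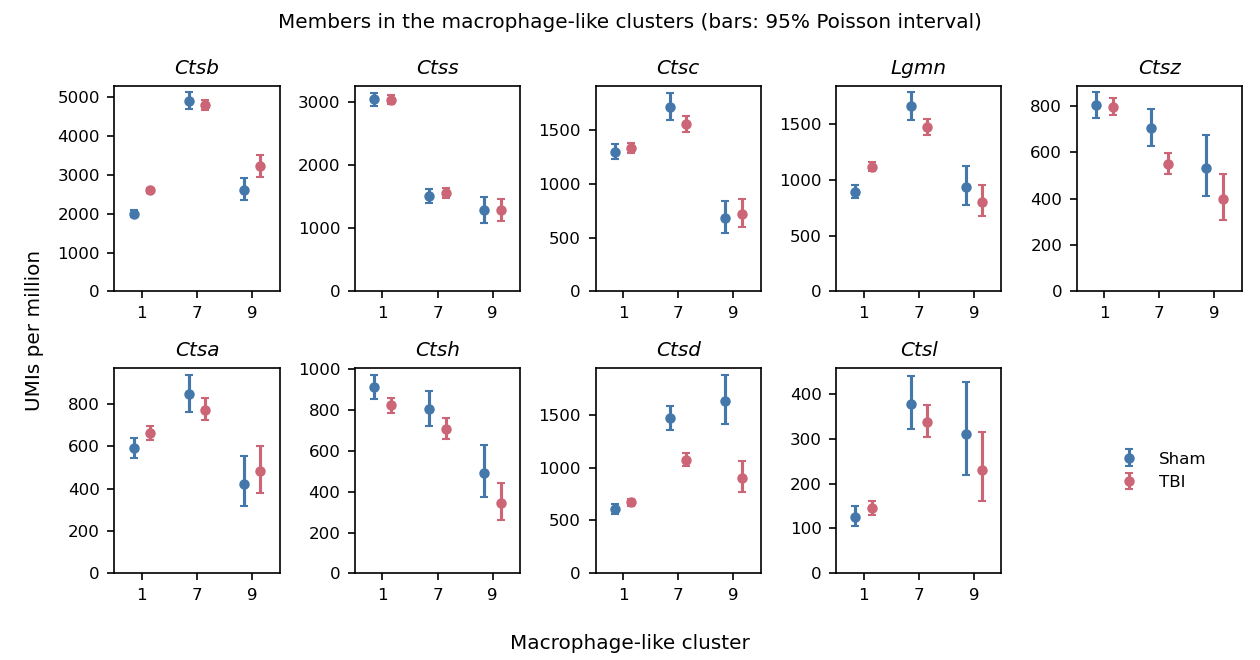
Levels of 9 members in the 3 macrophage-like clusters, as CPM with 95% Poisson intervals, Sham in blue and TBI in red. Ctss was highest in cluster 1 (3038 and 3031), Ctsb, Lgmn and Ctsc in cluster 7, and the Ctsd points of Sham and TBI stand apart in clusters 7 and 9.

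The small differences of the summed class were not the same in its clusters. Ctsb had a log2 ratio of 0.38 (0.31 to 0.45) in cluster 1, where 4.36% of 4126 genes passed 1.5-fold, and -0.04 (-0.11 to 0.04) in cluster 7, where 5.84% of 2278 genes passed. Lgmn was at 0.32 (0.22 to 0.43) and -0.18 (-0.30 to -0.05) in the same clusters. Ctsd was at 0.15 (0.01 to 0.28) in cluster 1, at -0.44 (-0.58 to -0.30) in cluster 7 and at -0.85 (-1.17 to -0.54) in cluster 9. That last value, from 1631 CPM in Sham and 904 in TBI, was the single member ratio past 1.5-fold in these 3 clusters, in a cluster where 10.4% of 385 genes passed. Ctsz was at -0.01 in cluster 1 and -0.36 (-0.56 to -0.15) in cluster 7. The makeup of the class also differed, since cluster 9 held 109 of 363 Sham cells and 128 of 775 TBI cells, though 7.63% and 4.69% of the UMIs.

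Among the other genes of the lysosomal pathway, 6 of the 82 with at least 100 UMIs passed 1.5-fold in macrophage-like cells, 3 in each direction, where 3.54% of all genes passed. Of the 32 other hydrolases with at least 100 UMIs, 1 passed 1.5-fold upward (Acp5, 16.2 and 30.3 CPM). Of the 35 with at least 10 UMIs, 27 lay above 0, with a median log2 ratio of 0.07, beside 0.02 over all genes at that depth. Among all genes with at least 100 UMIs, 52.3% lay above 0. Asah1, the acid ceramidase, was at 369 and 415 CPM. Of 17 membrane and cofactor genes 1 passed, Ctns (15.6 and 24.3 CPM, 0.62, -0.01 to 1.35), while Psap, the saposin precursor, was at 3708 and 3786 and Grn at 1349 and 1385. None of the 17 proton pump subunits passed, Atp6v0c being at 932 and 945 CPM. In the sorting list Gga2 (32.4 and 18.7 CPM) and Sorl1 (33.0 and 21.8) fell, 2 of 7 genes tested, and the receptor gene M6pr was at 203 and 218. Among the other cathepsins, the aspartic protease Napsa fell from 97.1 to 41.3 CPM (-1.23, -1.57 to -0.90) and Ctsf rose from 43.6 to 69.3 (0.66, 0.28 to 1.07). The cystatin Cst3, a secreted inhibitor of cysteine cathepsins, was at 8440 and 7764 CPM (-0.12, -0.15 to -0.09). The 4 MiT/TFE genes all lay below 0, with a median of -0.33, and none of the 3 tested passed, with Tfe3 at 84.6 and 66.2 CPM.

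In fibroblast-like cells the same lists had 2 genes past 1.5-fold, Laptm5 up (8 and 105 UMIs), a gene of leukocyte lysosomes, and Gga2 down (74.2 and 49.1 CPM, -0.62, -1.21 to 0.07). Among all 4986 genes with at least 100 UMIs in this class, 10.9% passed in either direction. The number of list genes at that depth is not given here, so the 2 are not set against this share. Cst3 was at 3998 and 4652 CPM (0.22, 0.14 to 0.30), Hexa at 173 and 252 (0.53, 0.16 to 0.94) and Grn at 333 and 463 (0.47, 0.21 to 0.76). The median ratio of the 17 membrane and cofactor genes was 0.18 and that of the 35 hydrolases 0.11, beside -0.04 over all genes.

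Likeness of pattern was measured as Pearson's r of log2(CPM + 10) over 34 points, the 17 classes in both libraries, which share library, depth and class, for 6353 genes. These values describe the points and carry no test. Ctsh and Ctsz were each other's most similar gene (r = 0.90). The genes most similar to Ctss were Irf5 (0.94), Ly86 and Pirb (both 0.90), and those most similar to Ctsc were Lrrc25 (0.85), Tlr2 (0.84) and Ctss (0.84). Ctsk was most like Cntfr and Adamts2 (both 0.95) and the collagen receptor gene Mrc2 (0.93), and its r with Ctss was -0.48. Ctsb was most like P2ry12 (0.84), Asah1 and Grn (both 0.83). The leading value was lowest for Ctsd, with Pld3 at 0.78, Saraf at 0.75 and Maf at 0.74, and Ctsl was most like Timp2, Nenf and Atraid (all 0.82). Ctsa was nearest to Ifi207, Cybb and Cd300a (0.86, 0.85 and 0.84) and Lgmn to Ftl1, Akr1a1 and Marcks (0.80, 0.77 and 0.76). With 1 CPM added in place of 10, 16 of these 30 genes stayed among the leading 3, none of them for Ctsk or Ctsa.

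Ctsb differed from the other members in the barcodes set aside for hemoglobin. Among barcodes with 50 to 80% hemoglobin UMIs (318 in Sham, 236 in TBI), 70.4% and 43.6% held a Ctsb UMI, at median depths of 2688 and 1849 UMIs, while Ctss was found in 1.89% and 2.97% and Ctsd in 0.943% and 3.39%. As CPM of the UMIs that were not hemoglobin, Ctsb was at 2504 (2304 to 2717) and 1635 (1425 to 1868) in these barcodes, against 841 and 1149 in barcodes with at most 5% hemoglobin. Ctss was at 30.3 and 60.3 there, and the C1q genes between 25.9 and 158. Alas2, an enzyme of heme synthesis in red cell precursors, was found in 100% of these barcodes. On the same scale Ctsb was at 1063 and 1509 at 5 to 20% hemoglobin and at 794 and 834 at 20 to 50%. At 80 to 100% it was at 974 and 584, in 19.7% and 10.3% of barcodes. In the barcodes removed for hemoglobin alone (289 and 174), there were 8.53 and 4.13 Ctsb UMIs per Ctss UMI, compared with 1.13 and 1.33 in macrophage-like cells. After thinning to 1000 UMIs, 43.4% of the Sham and 43.5% of the TBI barcodes of this kind held Ctsb, and the other members were in at most 6.55%.

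**Figure D5:**
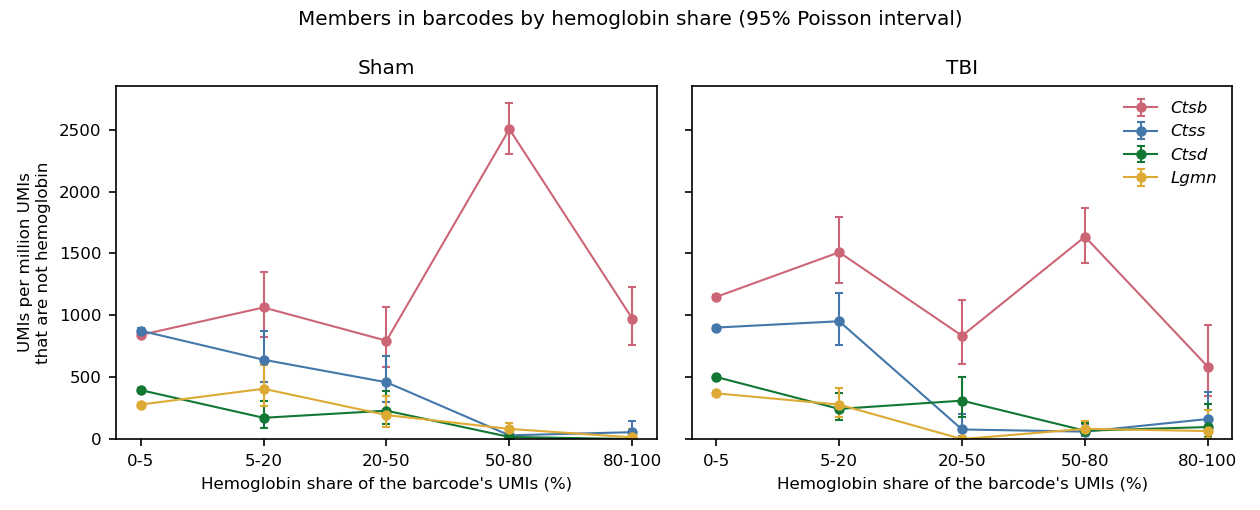
Level of Ctsb, Ctss, Ctsd and Lgmn as CPM of the UMIs that are not hemoglobin, in all barcodes of each library by the hemoglobin share of their UMIs, with 95% Poisson intervals. Ctsb reached 2504 in Sham and 1635 in TBI at 50 to 80% hemoglobin, where the other 3 genes were near the bottom of the axis.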

How the data were processed

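The 2 libraries (1 Sham, 1 TBI) were made with the 10x Chromium 3′ kit. The deposited values are raw UMI counts per gene and barcode, made by the authors on mm10. The paper's methods name Cell Ranger 1.3.1, the submitters' processing notes Cell Ranger 2.1.1, Seurat 3.9.9 and DESeq2 1.30.0, and the matrix headers 3.1.0. Barcodes with 150 to 5000 genes, at most 20% mitochondrial and at most 5% hemoglobin UMIs were kept, giving 7866611 and 13940740 UMIs. Doublets were predicted per library (33 Sham and 114 TBI cells) and left in, because the automatic cutoff marked only 2 and 3, so the expected number was taken by score. Cells were clustered in scanpy 1.11.5 with leidenalg 0.10.2 (1995 variable genes, 20 components, 20 neighbours, resolution 0.8, seed 1). A cluster was named from at least 3 markers of a class among its 50 leading genes, and 1 cluster stayed unnamed. UMIs were summed by class and library. The log2 ratio had 0.5 added to each sum, with an exact conditional binomial interval (95%). Genes needed 100 UMIs in a class to be compared (10 for list medians), and a ratio past 1.5-fold was counted. Shares have exact binomial intervals. The ratio step was tested on simulated data. With 1 library per group there is no residual spread and no p-value. The members and lists were chosen with earlier results of these data known. Genes named are the members, the 3 most alike genes of each, and of each list the 4 with most UMIs in macrophage-like cells and those past 1.5-fold, with 1 such gene not reported here. Leaving out cells with a C1q UMI, and lifting the barcode filters, were alternatives chosen after seeing the data. Protein sequences were not analysed here.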

Additional observations from a re-analysis of the deposited data

Results flagged for a closer look

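Several members had counting intervals on opposite sides of 0 in different classes. With 1 library per group, none of these differences between classes was tested. Ctsc had a log2 ratio of TBI over Sham of 0.94 in monocyte-like cells and -1.26 in proliferating cells. Ctss was at 3.63 in fibroblast-like and -1.15 in proliferating cells, the C1q genes being at 66.0 and 341 CPM in the first and 3075 and 327 CPM in the second, in Sham and TBI. Ctsz was at 0.44 in migratory dendritic cell-like cells (0.07 to 0.82) and -0.11 in macrophage-like cells.

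Inside the macrophage-like class, Ctsd was at 0.15 in cluster 1, -0.44 in cluster 7 and -0.85 in cluster 9. Lgmn was at 0.32 in cluster 1 and -0.18 in cluster 7. These differences were also not tested.

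Ctsb gave a signal in barcodes that the comparisons left out: 679 CPM in the Sham barcodes removed for hemoglobin (625 to 735) and 730.3 CPM in those of TBI (658 to 809). These CPM are of all UMIs, with hemoglobin itself at 629431 CPM in the Sham set and 523635 in the TBI set. They are therefore not on the scale of the levels without hemoglobin given above, and do not compare the libraries. Ctsk gave another signal outside the comparisons, with 330 UMIs (295 to 368) in 1 Sham barcode that was over the limit on genes and so in no class.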

How the results depend on the processing

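Across 13 alternatives and those added after seeing the data, 192 of 212 summary values stayed within their counting interval or within 1.5 times their count, as did 429 of 479 values of single genes, of which 47 moved and 3 reversed. The median log2 ratio of the members ran from -0.08 to 0.06 in macrophage-like, -0.12 to 0.01 in dendritic cell-like, 0.09 to 0.29 in fibroblast-like, 0.14 to 0.38 in endothelial cell-like and 0.15 to 0.80 in T cell-like cells. It left its counting range when cells were thinned to 1000 UMIs, to -0.079 in macrophage-like cells. Of 99 values of single members in macrophage-like cells, 17 moved. The log2 ratio there ran from 0.12 to 0.23 for Ctsb and from -0.03 to 0.14 for Lgmn. For Ctsd it ran from -0.38 to -0.13, for Ctsh from -0.28 to -0.14 and for Ctsz from -0.26 to -0.02. The count of members past the fold in macrophage-like cells was 0 except without a minimum of UMIs (1, Ctsk). In fibroblast-like cells it was 0 without predicted doublets and without cells holding a C1q UMI, 3 in the mean over cells and with clusters at equal weight, and 2 without a minimum. Where it was 0, Ctss was under the minimum of UMIs. The Ctss ratio was past the fold in 12 of 12 settings (2.35 to 3.66, lowest without predicted doublets). With 1 Sham UMI against 115 in TBI, settings that reuse these cells could hardly do otherwise, so this is no support for the ratio. In dendritic cell-like cells the count of members past the fold was 1 in the mean over cells (Ctsd) and without a minimum (Ctsk). In endothelial cell-like cells it was 2 at resolution 1.6 and with clusters at equal weight, 0 after thinning and 4 without a minimum, while the Lgmn ratio was past the fold in 12 of 12 settings (0.86 to 1.64, highest after thinning). In T cell-like cells the ratio was past the fold in 7 of 11 settings for Ctsa, 8 for Ctsc and 7 for Ctss. The 6 genes of the lysosomal lists past the fold in macrophage-like cells became 11 in the mean over cells, 10 with clusters at equal weight, 1 after thinning and 1 at 2-fold. The share of all genes past the fold was not computed under these alternatives. Changes in the counts of members or list genes therefore cannot be set against it. After thinning the median ratio was -0.42 for cystatins and 0.70 for sorting genes, with 2 and 9 genes left. With an offset of 1 CPM, 16 of the 30 most alike genes stayed. Ctss in T cell-like cells reversed to -0.17 without a limit on hemoglobin UMIs, a setting in which clusters were formed anew. Ctsk over all cells reversed to -0.22 without the limit on genes and -0.049 without any filter, both through 1 Sham barcode. Otherwise the cause of these changes was not tested. Equal cluster weight could not be applied to dendritic cell-like cells, which are 1 cluster.

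No paired analysis was possible because each group has 1 library. Counting intervals cover neither animals nor library preparation, and at this depth Ctsk outside fibroblast-like cells rests on at most 15 UMIs per library in any compared class.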
